A study of Homo sapiens with 4 samples.

Results

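The proteasome genes were taken as all genes whose symbol follows the pattern PSM, a letter from A to G and a number, without the immunoproteasome genes PSMB8, PSMB9 and PSMB10. The pattern matched 47 of the 19775 genes that have a probe set listed for them alone, and 42 of the 47 passed the filter on low signal and were tested, among 12636 genes tested in all. Of the 47, 39 encode proteasome subunits, assembly chaperones or activators, and all 39 were tested. The other 8 share only the symbol pattern. They are PSMC3IP, which acts in homologous recombination, PSME3IP1, which binds the activator PSME3, and 6 antisense or divergent transcripts, and they are described apart. PSMA6 and PSME2 share their probe sets with another gene, and these probe sets were not used. PSMB11, PSMC5, PSMD7 and PSMD13 were not analysed here.

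RNA came from HCT116, an established human colon cancer cell line. Serum was withdrawn from all cells for 24 h, and they then spent 72 h in hypoxia (1% oxygen) or in normoxia (21% oxygen), so the normoxia cells had been starved too. In such bulk RNA, fewer cells of a kind and less RNA per cell cannot be told apart. Each oxygen level was represented by 2 arrays, named as experiments (exp) A and B in both groups. The labels do not say whether these were separate cultures, and p-values here reflect only how far these arrays spread, which may be technical. The precision is limited by having 2 arrays a group. The unit is the MAS5 signal, a summary of the brightness of the probes of each probe set. Log2 differences are hypoxia minus normoxia of log2(signal + 23.7), given with the standard error (SE), and a gene was called at a limma adjusted p under 0.05.

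The proteasome is the protease that degrades proteins tagged with ubiquitin. Its core particle is a barrel of outer alpha rings and inner beta rings, and the cutting sites lie on the beta subunits PSMB5, PSMB6 and PSMB7. A regulatory particle caps the barrel: its base holds the ATPases PSMC1 to PSMC6, which unfold substrates, and its lid holds the deubiquitinase PSMD14. Dedicated chaperones assemble both particles, and other caps (PSME1 with PSME2, PSME3, and PSME4) can take the place of the regulatory particle.

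Most proteasome genes were lower in hypoxia. Of the 39 tested, 24 fell, 2 rose and 13 were not called, while 22.8% of all tested genes fell and 15.3% rose. Proteasome genes have high signal, where calls are more frequent: among genes whose mean signal reached the 75th percentile of all probe sets, 32.3% fell, against 25 of the 38 proteasome genes there. The median log2 difference of the 39 was -0.73, against -0.03 for all tested genes. Both hypoxia values lay under both normoxia values in 35 of the 39 (37.9% of all tested genes) and above both in 2 (34.1% of all tested genes). Under limma without an intensity trend the number that fell was 13, when 14.3% of all genes fell.

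**Figure D1:**
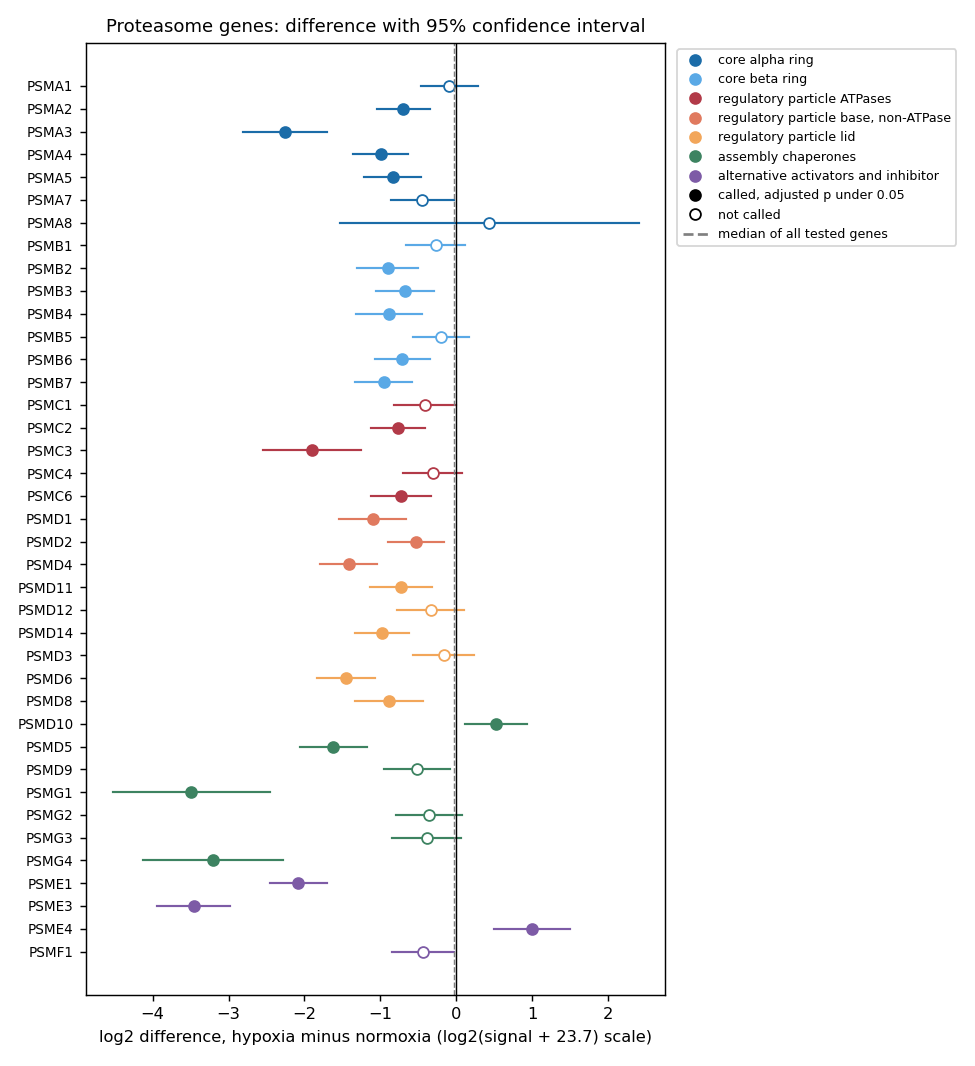
Log2 difference between hypoxia and normoxia (horizontal axis) for the 39 proteasome genes, with 95% confidence intervals from limma, coloured by class; filled points were called. PSMG1, PSME3 and PSMG4 lie furthest to the left, at -3.49, -3.46 and -3.20, and PSMD10 and PSME4 are the filled points to the right of 0.

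Genes of both the core particle and the regulatory particle fell. In the core particle 9 of 14 tested genes fell and 0 rose, with a median log2 difference of -0.70. Of the regulatory particle genes in the symbol pattern, 10 of 14 fell and 0 rose, with a median of -0.75. Outside the pattern, the lid gene SEM1 rose (log2 difference 0.57, limma adjusted p = 0.0488). The ubiquitin receptor gene ADRM1 fell (-0.51, limma adjusted p = 0.0498). Of all tested genes 22.8% fell and 15.3% rose. At an unadjusted p under 0.05 the number was 10 in each particle (47.8% of all tested genes in either direction). The medians differed by 0.05, which is less than the spread of that difference between arrays of a group (SD 0.13). The gap, core minus regulatory particle, depended on the setting. It was -0.085 under quantile normalization, and without hypoxia B the core median was -0.77 and the regulatory particle median -0.70. The gap was 0.37 with the mean of all probe sets of a gene. It was 0.24 where probe sets without an s_at or x_at suffix were preferred. These choices of probe set take in some probe sets under the filter. The difference between the particles was not tested. With each gene centred on its own mean over the 4 arrays, both particles were higher on each normoxia array than on each hypoxia array: the median centred log2 signal of the core genes was 0.32 and 0.45 on normoxia A and B and -0.41 and -0.27 on hypoxia A and B, and that of the regulatory genes was 0.43 and 0.39 and then -0.39 and -0.37. The median of all tested genes lay between -0.01 and 0.08 on the same scale. Without normoxia A the number of regulatory particle genes that fell was 5, and without normoxia B it was 6, while that of core genes was 8 and 6. The share of all tested genes that fell was 10.8% and 11.3% in these fits. With 1 normoxia array left, the residual spread comes from hypoxia, where arrays lay further apart (median SD of 0.27 in log2 units, against 0.15 in normoxia). In limma without a trend, 3 core and 5 regulatory particle genes fell, when 14.3% of all genes did.

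**Figure D2:**
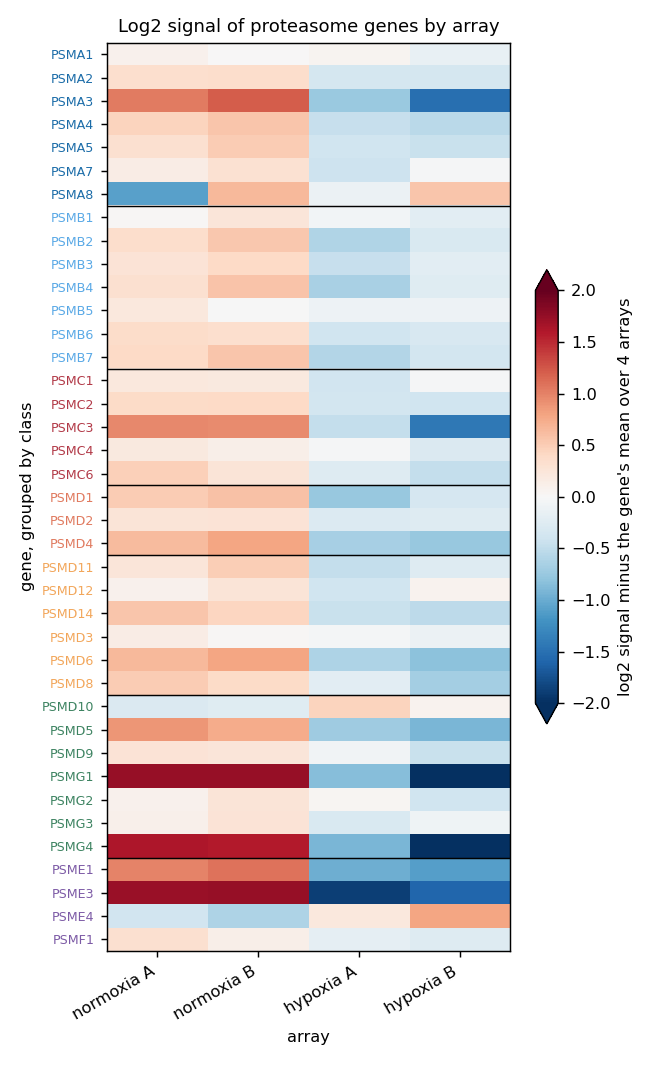
Log2 signal of each proteasome gene on each array (columns), minus the gene's mean over the 4 arrays; red is above and blue below that mean, and lines separate the classes. Most rows are red on both normoxia arrays and blue on both hypoxia arrays, with PSMD10 and PSME4 the other way.

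Some properties of the arrays moved with oxygen. The highest Bacillus control, a probe set for RNA that should be absent, was at 45.7 and 121 in normoxia and at 305 and 226 in hypoxia. The 3' to 5' signal ratio of the actin controls was 1.26 and 1.28 in normoxia and 1.66 and 1.77 in hypoxia, while that of the GAPDH controls lay between 0.91 and 1.00 on all 4 arrays. The bacterial controls added before hybridization had a mean signal of 2444 and 4595 on the normoxia arrays and of 9869 and 8594 on the hypoxia arrays. Scaled to these controls, the median of all genes moved to -1.40, 35 of the 39 proteasome genes fell and 0 rose (43.6% and 0.412% of all tested genes), and the core and regulatory medians lay 0.75 and 0.80 below the median of all genes, against 0.67 and 0.72 with the deposited scaling. The part of each of these properties in the results was not tested, so each direction is one relative to the rest of the genes on an array. The labels were borne out by the hypoxia genes NDRG1, ANKRD37, EGLN3 and VEGFA, which were all called higher, and by the epithelial genes EPCAM, KRT8, KRT18, KRT19 and CDH1, whose lowest signal on any array was 4913. The intestinal genes VIL1, CDX2 and LGALS4 did not exceed 217, and of 8 genes of leukocytes, endothelium and fibroblasts COL1A1 alone exceeded 223, with 545 and 595 in normoxia and 1752 and 2162 in hypoxia.

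Shown are stretches around the transcription start, as RefSeq lists them in GRCh38.p14, from 250 bases before it to 50 after it. They belong to the 2 core and 2 regulatory particle genes with the largest called differences. Capitals mark CCAAT, the box bound by the factor NF-Y, on the printed strand or as ATTGG on the other. PSMA3 lies at chr14:58244593-58244892 (plus strand), PSMA4 at chr15:78540155-78540454 (plus strand), PSMC3 at chr11:47426390-47426689 (minus strand) and PSMD6 at chr3:64023445-64023744 (minus strand). For PSMA4 the first of 3 listed starts is shown.
PSMA3: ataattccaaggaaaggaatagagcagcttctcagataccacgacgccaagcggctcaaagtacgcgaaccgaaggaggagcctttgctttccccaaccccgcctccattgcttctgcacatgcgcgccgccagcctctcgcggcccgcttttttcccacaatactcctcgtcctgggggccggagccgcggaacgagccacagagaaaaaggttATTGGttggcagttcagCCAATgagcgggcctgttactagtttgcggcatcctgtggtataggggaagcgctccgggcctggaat
PSMA4: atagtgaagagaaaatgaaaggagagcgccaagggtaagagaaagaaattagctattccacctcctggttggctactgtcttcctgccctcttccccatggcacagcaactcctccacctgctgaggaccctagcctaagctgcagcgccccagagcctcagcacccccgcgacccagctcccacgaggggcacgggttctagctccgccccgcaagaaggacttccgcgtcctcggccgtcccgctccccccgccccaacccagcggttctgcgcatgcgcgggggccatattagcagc
PSMC3: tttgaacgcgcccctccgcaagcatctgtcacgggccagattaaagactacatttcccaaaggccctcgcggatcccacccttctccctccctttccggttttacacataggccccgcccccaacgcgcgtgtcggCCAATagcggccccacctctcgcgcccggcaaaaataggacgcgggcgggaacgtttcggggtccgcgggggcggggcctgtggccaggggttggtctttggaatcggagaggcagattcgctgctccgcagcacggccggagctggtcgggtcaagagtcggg
PSMD6: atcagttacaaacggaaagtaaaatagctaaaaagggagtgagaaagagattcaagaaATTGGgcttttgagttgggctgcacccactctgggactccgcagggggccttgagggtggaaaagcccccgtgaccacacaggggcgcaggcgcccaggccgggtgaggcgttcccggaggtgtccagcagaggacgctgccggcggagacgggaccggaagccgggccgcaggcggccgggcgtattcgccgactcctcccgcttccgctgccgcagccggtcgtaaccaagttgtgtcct

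PSMA3 holds 2 CCAAT boxes just before its start, and PSMC3 and PSMD6 hold 1 each, while the stretch shown for PSMA4 holds 0. Over all listed starts, 33 of the 39 proteasome genes had such a stretch. CCAAT, searched on both strands, was in 16 of the 33 (48.5%) and in 39.7% of all 27305 genes listed, tested here or not. It was in 7 of 10 core, 6 of 13 regulatory particle and 3 of 10 chaperone and activator genes. TGACNNNGC, the antioxidant element that NRF factors bind, was in 12 of 33 (36.4%, against 16.1% of all genes), with 2 of 10 core, 4 of 13 regulatory particle and 6 of 10 chaperone and activator genes. ACGTG is a form of the core of the element that hypoxia-inducible factors bind. It was in 6 of 33 (18.2%, against 24.9%), and in 0 of 13 regulatory particle genes. Other forms of that core were not searched. Of the 16 genes with CCAAT 13 fell, with a median log2 difference of -0.90. Of the 17 without it 8 fell, with a median of -0.52, while 22.8% of all tested genes fell. For TGACNNNGC the counts were 6 of 12 with it and 15 of 21 without it. For ACGTG they were 3 of 6 with it and 18 of 27 without it. These matches are a description of the sequence, and their relation to the change was not tested.

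In the alpha rings, which form the gate of the barrel, 4 of 7 tested genes fell (22.8% of all tested genes did). PSMA3 had the largest change, with signals of 9431 and 10652 on normoxia A and B and of 2735 and 1590 on hypoxia A and B. Its groups do not overlap, and hypoxia B is the lowest. The log2 difference was -2.25 ± 0.24 SE, a 4.76-fold lower level (limma adjusted p = 2.48e-04), or -1.86 if hypoxia B is left out and -2.64 if hypoxia A is. A dim second probe set of PSMA3, with signals from 17.4 to 296, went up by 2.01 on the log2 scale. Its values on hypoxia A and B, 296 and 180, lie under the highest Bacillus controls there (305 and 226). The mean over the probe sets of PSMA3, which takes in a further one with a mean signal of 24.3, was -0.22 (limma adjusted p = 0.709). PSMA4 fell from 11304 ± 580 to 5657 ± 232 (SD, n = 2), a 1.99-fold lower level (limma adjusted p = 0.00144), with all 4 values well apart by group. PSMA5 and PSMA2 fell less, with log2 differences of -0.84 and -0.69, and the call of PSMA5 was lost without normoxia B (limma adjusted p = 0.0988). PSMA7 had a log2 difference of -0.44 (limma adjusted p = 0.0878) with groups that do not overlap, and PSMA1 had one of -0.09, with a 95% interval from -0.47 to 0.28. PSMA8, the testis form of an alpha subunit, had signals from 31.2 to 159, at or under the highest Bacillus control, a probe set for RNA that should be absent, on 3 of 4 arrays. Its log2 difference of 0.44 was not called (limma adjusted p = 0.721).

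In the beta rings 5 of 7 genes fell (22.8% of all tested genes did), all by less than 2-fold, from 1.59-fold for PSMB3 to 1.94-fold for PSMB7. Of the genes of the 3 cutting sites, 2 fell. PSMB7, the trypsin-like site, had signals of 8324 and 9225 in normoxia and of 4171 and 4860 in hypoxia. Its log2 difference was -0.96 ± 0.17 SE (limma adjusted p = 0.00226), and both hypoxia values were far under both normoxia values. PSMB6, the caspase-like site, had signals of 5008 and 4927 in normoxia and of 2952 and 3105 in hypoxia. The normoxia values of PSMB6 were close together and well above those of hypoxia, with a log2 difference of -0.71 ± 0.16 SE (limma adjusted p = 0.00746); the call was lost without normoxia A (0.113) or normoxia B (0.0975). PSMB5, the chymotrypsin-like site and main target of bortezomib, had signals of 7927 and 6763 in normoxia and of 6382 and 6335 in hypoxia. PSMB5 was not called (log2 difference -0.20, limma adjusted p = 0.359), with a 95% interval from -0.57 to 0.17, and normoxia B lay only slightly above hypoxia A. Whether PSMB5 differed from PSMB6 and PSMB7 was not tested.

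The structural beta genes PSMB2 (log2 difference -0.90), PSMB4 (-0.89) and PSMB3 (-0.67) fell, while PSMB1 had a log2 difference of -0.27 (limma adjusted p = 0.250). The call of PSMB3 was lost without normoxia B (0.0759). Quantile normalization gave PSMB1 a log2 difference of -0.63 and a call (limma adjusted p = 0.00311). PSMB2 rests on its brightest probe set. A second one, with a mean signal of 1058, had a log2 difference of -0.08 with overlapping groups. A dim probe set of the same gene, with a mean signal of 204, went up by 1.24 on the log2 scale. The mean over all probe sets of PSMB2 was 0.63.

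Among the ATPases of the base, 3 of 5 tested genes fell (22.8% of all tested genes did). PSMC3 changed most, from 3659 and 3636 on the normoxia arrays to 1339 and 683 on hypoxia A and B. Both hypoxia values were low, and they differed from each other by more than the normoxia values did. The log2 difference was -1.90 ± 0.28 SE, a 3.74-fold lower level (limma adjusted p = 0.00106), or -1.43 and -2.38 with hypoxia B or hypoxia A left out. PSMC2 and PSMC6 fell by 0.77 and 0.73 on the log2 scale, and both calls were lost without normoxia A or without normoxia B. PSMC1 and PSMC4 had log2 differences of -0.41 and -0.31 (limma adjusted p = 0.105 and 0.187), with all hypoxia values under all normoxia values.

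The other genes of the base all fell (22.8% of all tested genes did). PSMD4, a receptor for ubiquitin chains, had signals of 5622 and 6239 in normoxia and of 2282 and 2125 in hypoxia. The hypoxia values were alike and far under those of normoxia, with a log2 difference of -1.42 ± 0.16 SE (limma adjusted p = 3.22e-04), and 2 more bright probe sets of PSMD4 had log2 differences of -1.70 and -1.78. PSMD1, a scaffold of the base, fell by 1.10 on the log2 scale, a 2.15-fold lower level. PSMD2, the other scaffold, had a log2 difference of -0.53 (limma adjusted p = 0.0293), and its call did not hold without normoxia A (0.272), without normoxia B (0.261) and with scaling to the 75th percentile (0.0936).

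Of the lid genes in the symbol pattern, which leaves out SEM1, 4 of 6 tested genes fell (22.8% of all tested genes did). PSMD6 had the largest difference, with 6303 and 6967 in normoxia and 2588 and 2250 in hypoxia. Its groups lie well apart (log2 difference -1.45 ± 0.17 SE, limma adjusted p = 3.22e-04). PSMD14, which removes ubiquitin from substrates, had signals of 8595 and 7893 in normoxia and of 4293 and 4063 in hypoxia. The hypoxia values of PSMD14 were close to each other, and the log2 difference was -0.98 ± 0.16 SE (limma adjusted p = 0.00161). PSMD8 and PSMD11 fell by 0.89 and 0.73 on the log2 scale; both calls were lost without normoxia A (limma adjusted p = 0.0848 and 0.0694), and that of PSMD11 also without normoxia B (0.206). PSMD3 was not called at -0.17, with a 95% interval from -0.57 to 0.23, and neither was PSMD12 at -0.33.

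**Figure D3:**
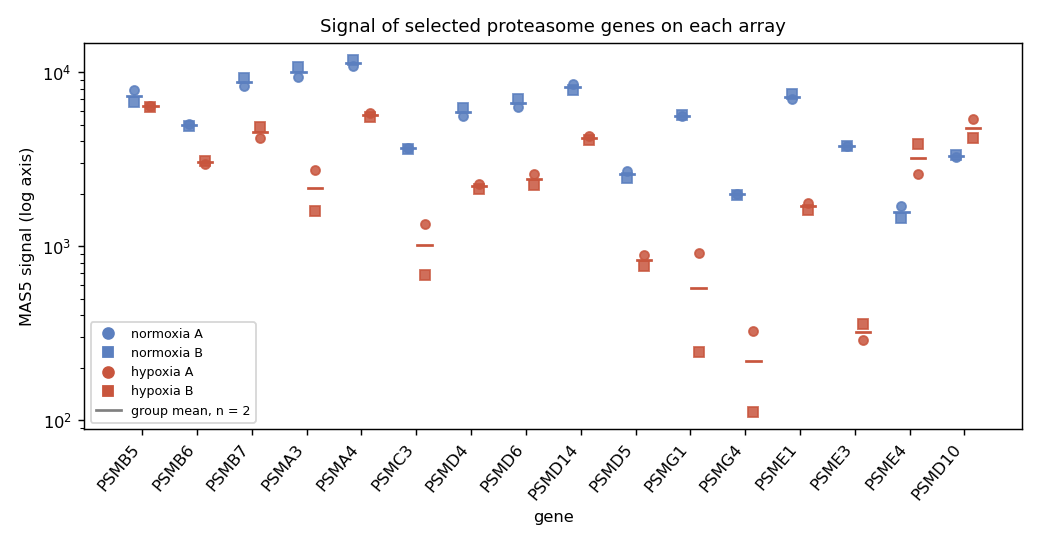
MAS5 signal on a log axis for 16 proteasome genes on each array, circles for letter A and squares for letter B, with a line at each group mean (n = 2). Hypoxia values lie under normoxia values for all but PSME4 and PSMD10, and PSMG1, PSMG4, PSMC3 and PSMA3 are lowest on hypoxia B.

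The largest decreases were among the chaperones and activators, and not among the subunits. PSMG1 and PSMG2 pair up to build the alpha ring, as do PSMG3 and PSMG4. PSMG1 had signals of 5605 and 5646 in normoxia and of 908 and 248 on hypoxia A and B. The value on hypoxia B lies only just above the highest Bacillus control there, 226, so the size of the PSMG1 fold is uncertain. The log2 difference was -3.49 ± 0.46 SE, an 11.2-fold lower level (limma adjusted p = 5.81e-04), and the hypoxia arrays differed widely, with -2.60 when hypoxia B is left out and -4.38 when hypoxia A is. Its partner PSMG2 had signals of 7612 and 8575 in normoxia and of 7321 and 5418 in hypoxia and was not called (limma adjusted p = 0.168). The 95% interval of the log2 difference ran from -4.53 to -2.45 for PSMG1 and from -0.79 to 0.07 for PSMG2.

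The other pair was split in the same way. PSMG4 went from 2007 and 1957 in normoxia to 327 and 112 on hypoxia A and B, a log2 difference of -3.20 ± 0.41 SE (limma adjusted p = 4.96e-04), or -2.52 and -3.89 with hypoxia B or hypoxia A left out. The value on hypoxia B lies under the highest Bacillus control there, 226, so the size of the fold rests on a value near background. PSMG3 had a log2 difference of -0.39, with an interval from -0.84 to 0.07, and was not called. The difference between the partners of a pair was not tested. PSMG4 also had 4 dim probe sets under the filter. Its call was lost with the mean over all of its probe sets (log2 difference -0.996, limma adjusted p = 0.192). It was lost too with a probe set without an s_at or x_at suffix (-0.14, limma adjusted p = 0.916). For POMP, which acts with these pairs, the log2 difference was -0.41 (limma adjusted p = 0.0891).

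The chaperones of the base were mixed. PSMD5 fell from 2595 ± 171 to 831 ± 82.8 (SD, n = 2), a log2 difference of -1.62 ± 0.19 SE (limma adjusted p = 3.69e-04), with no overlap between the groups. PSMD9 had a log2 difference of -0.52 (limma adjusted p = 0.0594). PSMD10, also known as the oncoprotein gankyrin, rose from 3245 and 3354 in normoxia to 5407 and 4164 on hypoxia A and B. Both hypoxia values of PSMD10 were the higher ones, but the log2 difference of 0.52 ± 0.18 SE was called only just (limma adjusted p = 0.0489). That call was lost without normoxia A (0.268), normoxia B (0.211) or hypoxia A (0.0685), a second bright probe set gave 0.06, and scaling to the hybridization controls, which moved the median of all genes to -1.40, gave -0.93.

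The activators went in opposite directions. PSME3, the cap found in the nucleus, had signals of 3750.1 and 3775 in normoxia and of 287 and 356 in hypoxia. Its groups are more than 10 times apart, with a log2 difference of -3.46 ± 0.21 SE, an 11.0-fold lower level (limma adjusted p = 3.22e-05), and 3 further probe sets were lower in hypoxia too. The value on hypoxia A lies under the highest Bacillus control of that array, 305, and most hypoxia values of the further probe sets lie under those controls (305 and 226), so the size of the fold is uncertain. PSME1, an interferon-inducible cap subunit, fell from 7236 ± 336 to 1696 ± 114 (SD, n = 2; log2 difference -2.08 ± 0.16 SE, limma adjusted p = 6.91e-05), and no value of one group came near the other. PSME4, a large nuclear activator, rose from 1702 and 1450 in normoxia to 2590 and 3866 on hypoxia A and B. Hypoxia B was the highest, and the log2 difference was 1.00 ± 0.22 SE (limma adjusted p = 0.00748). A second probe set of PSME4 gave 0.99, a further, dimmer one gave -0.43, and the mean over all gave 0.52 (limma adjusted p = 0.109). The call of PSME4 was lost without normoxia B (0.0809), and the scaling to the hybridization controls gave -0.44, also against a median of -1.40 over all genes. PSMF1, an inhibitor of the core particle, had signals of 2281 and 1984 in normoxia and of 1602 and 1526 in hypoxia, a log2 difference of -0.44 (limma adjusted p = 0.0879), with hypoxia the lower group on every array and with a second bright probe set at -1.34.

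Across probe sets of the same gene, the brightest one often showed the lesser decrease. For the genes whose brightest probe set was lower in hypoxia, 24 further probe sets passed the filter. Of these, 16 gave a larger decrease than the brightest, and 8 lay nearer 0 or above it. With a mean signal above the highest Bacillus control of any array (305) there were 20, and 15 of these 20 gave a larger decrease. PSMD12 had -0.33 at a mean signal of 8892 and -1.74 at 2842. PSMA2 had -0.69 at 8672 and -1.97 at 886, and PSMC2 had -0.77 at 4787 and -1.87 at 1025. The opposite held for PSMB2, as given above, and for some probe sets of PSMA1, PSMB4 and PSME3. These gave -0.04 against -0.09 for PSMA1, -0.67 against -0.89 for PSMB4, and -3.15 and -2.87 against -3.46 for PSME3. Of all 27 further probe sets past the filter, 24 had the sign of the brightest one. Reading each gene by the mean of its probe sets gave a median of -0.60 for the core and of -0.97 for the regulatory particle, with 7 and 10 genes lower (15.8% of all tested genes). Under that mean, which takes in probe sets below the filter, the calls of PSMB7 (limma adjusted p = 0.194), PSMD5 (0.483) and PSMD6 (0.0639) were lost too. The cause of the gap between probe sets was not tested.

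**Figure D4:**
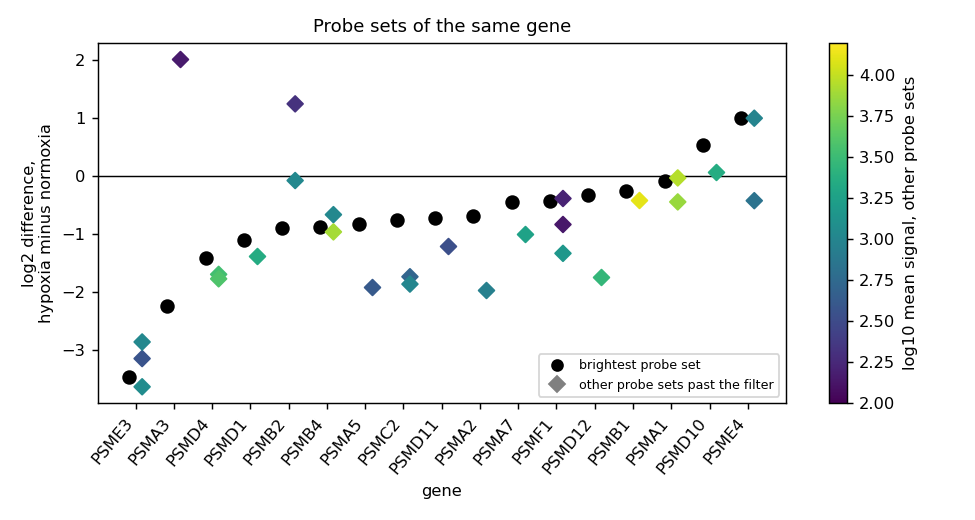
Log2 difference of the brightest probe set (black circles) and of the other probe sets past the filter (diamonds, coloured by log10 mean signal) for the 17 genes that have several. Most diamonds lie below the circle of their gene, and those above 0 belong to PSMA3 (2.01), PSMB2 (1.24), PSME4 (0.99) and PSMD10 (0.06).

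The remaining genes of the pattern were read apart. PSMA3-AS1, a transcript antisense to PSMA3, fell from 1970 ± 255 to 637 ± 137 (SD, n = 2; log2 difference -1.60, limma adjusted p = 8.94e-04). Whether its probes also read PSMA3 was not tested. PSME3IP1 fell by 1.18 on the log2 scale. PSMC3IP had signals of 519 and 706 in normoxia and of 9.79 and 410 on hypoxia A and B. Thus 1 array sets its log2 difference of -2.39, which was not called (limma adjusted p = 0.0828). Its second probe set was nearly as bright (mean signal 408 against 411), with a log2 difference of -0.66. That probe set had 464 and 538 in normoxia and 254 and 375 in hypoxia. PSMB8-AS1, PSMD14-DT, PSMD6-AS2, PSMD7-DT and PSMG3-AS1 had mean signals under the filter of 97.4 and were not tested.

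The immunoproteasome genes PSMB9 and PSMB10, whose products replace cutting subunits under interferon, were both called lower. PSMB9 had signals of 603 and 803 in normoxia and of 124 on both hypoxia arrays, and PSMB10 had 799 and 729 and then 111 and 18.7. All of these hypoxia values lie under the highest Bacillus control of their array (305 and 226), so no size is given. PSMB8 was at 3.11 to 10.5 on all arrays and was not tested. Of 14 tested partners of the proteasome outside the symbol pattern, 4 fell and 1 rose (28.6% and 7.14%, against 22.8% and 15.3% of all tested genes). PAAF1, a further chaperone of the base, was called lower, with hypoxia values of 202 and 103 that lie under the highest Bacillus controls. The deubiquitinase gene UCHL5 fell by 1.11, ECPAS by 1.10 and the ubiquitin receptor gene ADRM1 by 0.51 on the log2 scale, the last at a limma adjusted p of 0.0498. SEM1, the smallest lid subunit, rose by 0.57 (limma adjusted p = 0.0488). Of 10 tested genes of ubiquitin supply, shuttles and the segregase, 1 fell and 0 rose in limma (22.8% and 15.3% of all tested genes). The 1 that fell was VCP, with a log2 difference of -0.50. At an unadjusted limma p under 0.05 there were 2 (47.8% of all tested genes in either direction), and the list median was -0.22.

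Of 11 tested genes that act on the transcription of proteasome genes, 4 rose and 2 fell (36.4% and 18.2%, against 15.3% and 22.8% of all tested genes). NFE2L1, the factor that raises proteasome genes when the proteasome is impaired, had signals of 3726 and 4118 in normoxia and of 2778 and 3362 in hypoxia and was not called (log2 difference -0.36, limma adjusted p = 0.140). NGLY1, the glycanase that helps to activate it, rose by 1.04 on the log2 scale. MAFF, a small MAF partner, rose by 2.61, and STAT3 rose by 1.34. The NF-Y subunit genes were split: NFYA rose by 0.64, NFYC fell by 1.13 and NFYB had a log2 difference of -0.57 without a call. KEAP1, a ubiquitin ligase adaptor for NFE2L2, fell by 1.06 on the log2 scale, and NFE2L2 itself was not called at 0.40.

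**Figure D5:**
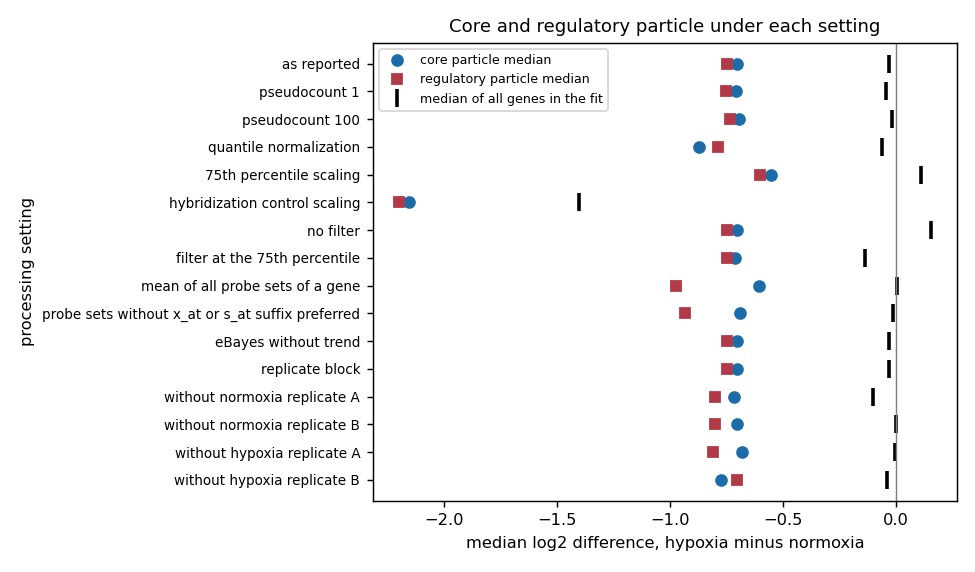
Median log2 difference of the core particle (circles) and of the regulatory particle (squares), with the median of all genes in the fit (bars), under the reported setting and 15 alternatives. Both medians lie below the bar in each of them, and the distance between core and regulatory particle is widest for the mean of all probe sets.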

How the data were processed

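Affymetrix arrays were hybridized with biotin-labelled cRNA (6 µg of RNA each), as the labels' protocols state. The deposited values are intensities per probe set, made by the authors with MAS5, as in the submitters' processing notes, which name no version here. Trimmed by 2% at each end, the mean was 500.1 on every array, so arrays appear scaled to a common mean. Of 54675 probe sets, 41097 were listed for 1 gene in the platform annotation. Genes were read by their brightest probe set (mean over 4 arrays) and tested where that mean reached 97.4, the median of all probe sets. Log2(signal + 23.7), with the 25th percentile of all values as pseudocount, was compared across all genes with limma 3.58.1 in R 4.3.3 (intensity trend, two-sided, Benjamini-Hochberg); the fit was tested on simulated data. Probe sets and filter stayed fixed when an array was left out. At most 1 value was identical between 2 arrays, so none is a duplicate. All proteasome genes tested could be named, with values of every array for the cutting subunits, preset genes of each role and the largest called change of each class. Members and lists were chosen with earlier results of these data known; PSME3IP1 was moved from a list of partners to the members, whose pattern it matches. Symbols of all 47 members matched RefSeq by gene identifier. Promoters are from RefSeq. Python 3.11.15 with matplotlib 3.10.9 drew the figures. Alternatives covered the pseudocount, normalization, filter, probe set choice, variance model, replicate block and each array left out.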

Additional observations from a re-analysis of the deposited data

How the results depend on the processing

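Among the 26 called proteasome genes, 7 (PSMA4, PSMC3, PSMD1, PSMD14, PSME1, PSME3 and PSMG1) were called in the same direction under all 15 alternatives. The number of genes that fell stayed between 17 and 35, apart from 13 in limma without a trend. The number that rose was 1 with a pseudocount of 1, with no filter, or where probe sets without an s_at or x_at suffix were preferred. It was 0 with the mean of all probe sets, without a trend or scaled to the hybridization controls. The core median was -0.87 under quantile normalization, -0.55 scaled to the 75th percentile, -2.15 scaled to the hybridization controls, -0.60 with the mean of all probe sets, and -0.77 to -0.68 without 1 array. The regulatory particle median was -0.60 scaled to the 75th percentile, -2.20 to the hybridization controls, -0.97 with the mean of all probe sets and -0.93 without suffix. Core minus regulatory particle was -0.085 under quantile normalization, 0.37 with the mean of all probe sets and 0.24 without suffix. PSMB2 turned to 0.63 with the mean of its probe sets and to 1.24 without suffix, settings that bring in its dim probe sets. PSMD10 and PSME4 were at -0.93 and -0.44 scaled to the hybridization controls, which moved the median of all genes to -1.40. Scaling to the 75th percentile left 23 lower and 2 higher (19.0% and 18.8% of all tested genes). Over all genes 49.7% of calls were then higher, against 40.1%. With a replicate block for the letters, 26 fell and 2 rose (25.8% and 17.6% of all tested genes). The titles give the letters as experiments, and whether these pair the arrays is not known (correlation of deviations 0.09). PSMA7 and PSMD9 gained a call with the block, and no call was lost. Signals near the Bacillus controls limit PSMG1, PSMG4, PSME3, PSMA8, PSMB9, PSMB10 and PAAF1.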
